A study of Mus musculus with 6 samples.

Results

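The miR-15/16 family was examined as the 9 rows of the deposited miRNA table that carry its members, out of 1522 rows in all. They were chosen by name: mmu-miR-15a-5p, mmu-miR-15b-5p, mmu-miR-15b-3p, mmu-miR-16-5p, mmu-miR-16-2-3p, mmu-miR-195a-5p, mmu-miR-195a-3p, mmu-miR-497a-5p and mmu-miR-322-5p; the mouse prefix is left out from here on. Of these, 4 rows belong to the cluster in the Smc4 intron and 3 to the cluster from Mir497 to Mir195a. All 9 passed the filter for testing (at least 1 RPM, tags scaled to a common library total, in 3 or more libraries), as did 649 rows in all. Small RNA had been sequenced from neural stem cells of the hippocampus, taken from male C57BL/6J mice at postnatal day 3. In the group called GDE here, the pregnant dams had received dexamethasone, a synthetic glucocorticoid, intraperitoneally at 1 mg/kg each day between E14.5 and E18.5, and the library titles call this group IUGR. In the Control group the dams had been given saline on that schedule, and the titles call it Normal. Each group held 3 libraries, and per the design text these came from separate litters; whether a library pooled several pups was not given in the sources used here.

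Members of this family begin with nearly the same bases, and the seed, bases 2 to 8, is what a miRNA pairs with in its target mRNAs. Through that shared seed they repress genes of the cell cycle, among them the cyclins D1 and E1 and Cdk6, which drive it, and Wee1, a kinase that holds back mitosis, and also the survival gene Bcl2. The human counterparts of miR-15a and miR-16-1 are known from their deletion in chronic lymphocytic leukaemia, and miR-195 and miR-497 from cell cycle exit in heart and skeletal muscle. Each precursor hairpin yields a 5p and a 3p arm. In this family the 5p arm is the guide that is loaded into Argonaute, and the 3p arm is the passenger, which is mostly degraded.

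The sequences are shown because the seed defines the family and because the bases after it decide whether a read can be told apart from a relative. They are RefSeq entries for GRCm38.p6, matched by miRNA name for all 9 members, and capitals mark the seed. The 6 guide strands share 1 seed.
miR-16-5p: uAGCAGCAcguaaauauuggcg
miR-195a-5p: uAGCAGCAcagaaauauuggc
miR-15a-5p: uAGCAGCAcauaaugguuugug
miR-15b-5p: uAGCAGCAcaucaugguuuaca
miR-497a-5p: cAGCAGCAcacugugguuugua
miR-322-5p: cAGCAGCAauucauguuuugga

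The closest pair of guides was miR-16-5p and miR-195a-5p, which differed at 2 of 21 compared positions, G10A and U11G, counted from 1 at the 5′ end with miR-16-5p as the reference. miR-15a-5p and miR-15b-5p differed at 4 of 22 positions, A12C, G20A, U21C and G22A, 3 of them the last bases. The other pairs of guides differed at 5 to 11 positions. Reads of miR-15a-5p and miR-15b-5p that end before base 20 differ at A12C alone. How reads matching several miRNAs were assigned was not given in the sources used here. No other row of the table carried exactly the values of a member. The reference holds 4 further mouse miRNAs with this seed, miR-195b, miR-6342, miR-6353 and miR-6419, and none of the 4 matched a row of the table.

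The passenger strands of the family have seeds of their own and would pair with other targets.
miR-15b-3p: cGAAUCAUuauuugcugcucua
miR-16-2-3p: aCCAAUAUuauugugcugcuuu
miR-195a-3p: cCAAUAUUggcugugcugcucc
miR-16-1-3p: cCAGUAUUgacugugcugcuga

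miR-16-5p has the same sequence in 2 precursors, so its tags cannot be traced to a locus, while its 3p arms can. The hairpins of Mir16-2 and Mir16-1 are printed to show this, and Mir15b is added as the neighbour of Mir16-2. Both arms are in capitals.
Mir16-2: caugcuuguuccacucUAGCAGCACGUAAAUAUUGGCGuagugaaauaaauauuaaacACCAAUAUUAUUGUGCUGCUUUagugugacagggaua
Mir16-1: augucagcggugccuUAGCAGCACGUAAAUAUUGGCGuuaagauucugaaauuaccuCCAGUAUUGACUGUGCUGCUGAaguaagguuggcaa
Mir15b: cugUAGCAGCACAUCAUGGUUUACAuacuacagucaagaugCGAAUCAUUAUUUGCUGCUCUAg

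In GRCm38, Mir15b lies at chr3:69009772-69009835 and Mir16-2 at chr3:69009902-69009996, both on the plus strand and 66 bases apart. Both sit in introns of Smc4, a subunit of the condensin complexes that compact chromosomes in mitosis, and GENCODE M21 placed no Smc4 exon over either. The related pair on chromosome 14 lies on the minus strand within Dleu2, a long non-coding RNA gene. There the arms of Mir15a span chr14:61632038-61632096, in introns, and Mir16-1 lies at chr14:61631880-61631972, which 1 annotated Dleu2 exon overlaps. Mir497 at chr11:70234717-70234800 and Mir195a at chr11:70235042-70235135 are 241 bases apart on the plus strand, and Mir322 lies at chrX:53054255-53054349 on the minus strand. GENCODE M21 had no other annotated gene over Mir497, Mir195a or Mir322, apart from miRNA genes.

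Each library held about 11751000 to 12385000 tags, of which 2927136 to 3343808 were in the table, and the RPM are relative to the larger number. Between 1273 and 1332 miRNAs were above 0 per library. The 9 members made up 4.70% to 5.96% of the summed RPM of the table, and miR-16-5p alone made up 49.1% to 57.6% of the family. Mature miRNAs of this family are all 21 or 22 bases long, so their RPM were compared without a length correction. Comparisons between members are of tags, and whether tags of different sequences stand in proportion to their molecules was not tested.

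The order of levels was the same in all 6 libraries. miR-16-5p was the most abundant member, at a mean of 7407 RPM over the 6 libraries, and ranked 12th of the 649 tested miRNAs. It was followed by miR-15a-5p (2529 RPM), miR-322-5p (1785 RPM), miR-497a-5p (1039 RPM), miR-15b-5p (631 RPM) and miR-195a-5p (219 RPM). The passenger strands came last, with miR-15b-3p at 68.6 RPM, miR-195a-3p at 11.98 RPM and miR-16-2-3p at 4.99 RPM. Although the order held in every single library, the ranges over libraries overlapped for 4 neighbouring pairs: miR-15a-5p with miR-322-5p, miR-322-5p with miR-497a-5p, miR-497a-5p with miR-15b-5p, and miR-195a-3p with miR-16-2-3p.

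**Figure D1:**
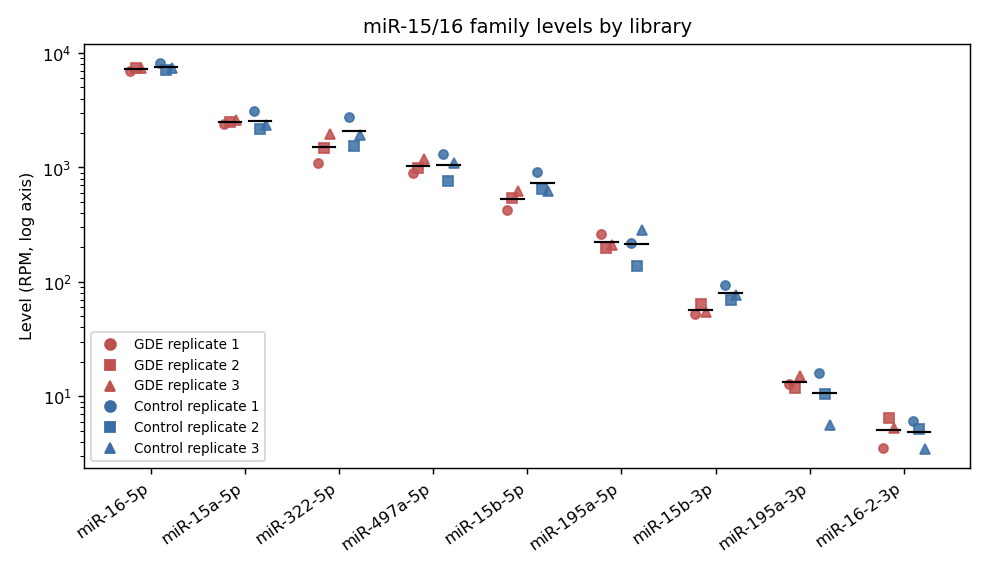
Level of each member in RPM (log axis) in the 3 GDE and 3 Control libraries, ordered by mean level; points are libraries and black bars are group means. The groups do not overlap for miR-15b-5p and miR-15b-3p, and they overlap for the other 7 members.

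The comparison of GDE with Control asks whether exposure before birth went along with other levels of these miRNAs in the offspring's stem cells. None of the 9 members passed the threshold in limma (Benjamini-Hochberg adjusted p under 0.05 over all 649 tested miRNAs), where 0.308% of all tested miRNAs did, and none passed in edgeR or DESeq2, of which edgeR called 0.308% of all tested and DESeq2 1.25% of the 560 miRNAs it gave an adjusted p. None had an unadjusted p under 0.05 in limma either, beside 8.63% of all tested miRNAs in either direction and 4.62% lower in GDE; the smallest were 0.0548 for miR-15b-3p and 0.0571 for miR-15b-5p. On the deposited RPM, both Mir15b arms were lower in every GDE library than in any Control library, by about 0.5 in log2. miR-322-5p had a difference of like size with overlapping groups. Differences for miR-15a-5p, miR-16-5p and miR-497a-5p were under 0.05 in size. In bulk RNA of this kind, a smaller number of cells of a type and less of the miRNA per cell cannot be told apart.

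miR-15b-5p, the guide from the Smc4 intron, stood at 423, 544 and 619.9 RPM in GDE replicates 1 to 3 and at 921, 648 and 629 RPM in Control replicates 1 to 3. On the deposited RPM the highest GDE library, replicate 3, lay just under the lowest Control library. Control replicate 1 stood well above the rest of its group. GDE replicate 3 had the lowest summed RPM of the table, at 241370, and relative to these sums the groups overlapped. Group means were 529 ± 99.1 and 733 ± 163 RPM (SD, n = 3 each), and the log2 fold of GDE minus Control was -0.46 (SE 0.21, 95% interval -0.95 to 0.02; limma, adjusted p = 0.561). Its exact two-sided permutation p was 0.1, the smallest that 3 against 3 libraries allow.

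The passenger of the same hairpin, miR-15b-3p, is read from other tags and gave 52.0, 64.3 and 54.1 RPM in GDE against 94.7, 70.0 and 76.5 RPM in Control. Again Control replicate 1 was highest and GDE replicate 1 lowest. The means were 56.8 ± 6.59 and 80.4 ± 12.8 RPM (SD, n = 3 each), with a log2 fold of -0.49 (SE 0.22, 95% interval -0.99 to 0.01; limma, adjusted p = 0.561; exact permutation p = 0.1). Without Control replicate 1 the log2 fold was -0.29 for miR-15b-5p and -0.37 for miR-15b-3p. On the deposited RPM, 2 of the 9 members had groups without overlap, lower in GDE, beside 10.0% of all tested miRNAs. These 2 come from 1 hairpin. No member was higher in GDE without overlap, beside 4.62% of all tested, and in either direction the share over the table was 14.6%.

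miR-16-5p, the other guide encoded in the Smc4 intron, was at 6988, 7379 and 7472 RPM in GDE and at 8138, 7069 and 7398 RPM in Control. Only Control replicate 1 stood apart, and the groups overlapped. The means of 7280 ± 256 and 7535 ± 548 RPM (SD, n = 3 each) gave a log2 fold of -0.05 (SE 0.07, 95% interval -0.20 to 0.11; limma, adjusted p = 0.887; exact permutation p = 0.5). This interval was the narrowest of the family. miR-16-5p is among the 18 miRNAs above 5000 RPM, whose median SD within groups was 0.05 on the log2 scale. Its own was 0.08, and the median was 0.19 for the 34 miRNAs next in level and 0.28 for all 649 tested. Several of the 18 lay close in mean level: miR-9-5p at 8408, let-7b-5p at 8344, miR-34a-5p at 7808, miR-26a-5p at 7724 and miR-16-5p at 7407 RPM. Whether differences are compressed at such levels was not tested, so the narrow interval cannot be taken as precision alone. The same limit holds for the share of miR-16-5p in the family and for ratios over it.

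miR-16-2-3p, the passenger that only Mir16-2 encodes, was at 3.51, 6.43 and 5.28 RPM in GDE and 6.07, 5.17 and 3.49 RPM in Control, from 41 to 76 tags per library. The groups overlapped fully. Counting error alone is wide here: the exact Poisson 95% interval ran from 2.53 to 4.74 RPM for GDE replicate 1 and from 5.07 to 8.05 RPM for GDE replicate 2. The log2 fold was 0.03 (SE 0.27, 95% interval -0.58 to 0.65; limma, adjusted p = 0.989).

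miR-15a-5p, whose hairpin lies in Dleu2, was at 2412, 2499 and 2611 RPM in GDE and at 3106, 2187 and 2360.3 RPM in Control. The GDE libraries lay inside the range of the Control libraries. The means were 2508 ± 99.9 and 2551 ± 488 RPM (SD, n = 3 each), with a log2 fold of -0.01 (SE 0.13, 95% interval -0.32 to 0.30; limma, adjusted p = 0.995).

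In the cluster from Mir497 to Mir195a the groups overlapped for all 3 members. miR-497a-5p was at 899, 995 and 1176 RPM in GDE and 1313, 762 and 1087 RPM in Control, with a log2 fold of -0.02 (SE 0.21, 95% interval -0.50 to 0.47; limma, adjusted p = 0.994). miR-195a-5p, the other guide of this cluster, was at 264, 198 and 209.8 RPM in GDE and 221, 139 and 282 RPM in Control. In both guides Control replicate 2 was the lowest library, and the GDE libraries fell within the Control range. For miR-195a-5p the log2 fold was 0.12 (SE 0.28, 95% interval -0.53 to 0.76; limma, adjusted p = 0.948).

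miR-195a-3p, its passenger, was at 12.9, 11.8 and 15.1 RPM in GDE and 15.96, 10.5 and 5.62 RPM in Control. Control replicate 3 was the low library, with 66 tags and an exact Poisson 95% interval of 4.34 to 7.15 RPM. The log2 fold of 0.38 (SE 0.34, 95% interval -0.40 to 1.17; limma, adjusted p = 0.737) was the highest of the family, and without Control replicate 3 it was 0.02.

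miR-322-5p, the mouse counterpart of human miR-424, was at 1086, 1479 and 1951 RPM in GDE and 2746, 1538 and 1909 RPM in Control. GDE replicate 3 lay above 2 of the Control libraries, so the groups overlapped. Its means were 1506 ± 433 and 2065 ± 619 RPM (SD, n = 3 each), and the log2 fold was -0.45 (SE 0.26, 95% interval -1.06 to 0.15; limma, adjusted p = 0.606; exact permutation p = 0.3). Without Control replicate 1 it was -0.23, and without GDE replicate 1 it was -0.24.

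**Figure D2:**
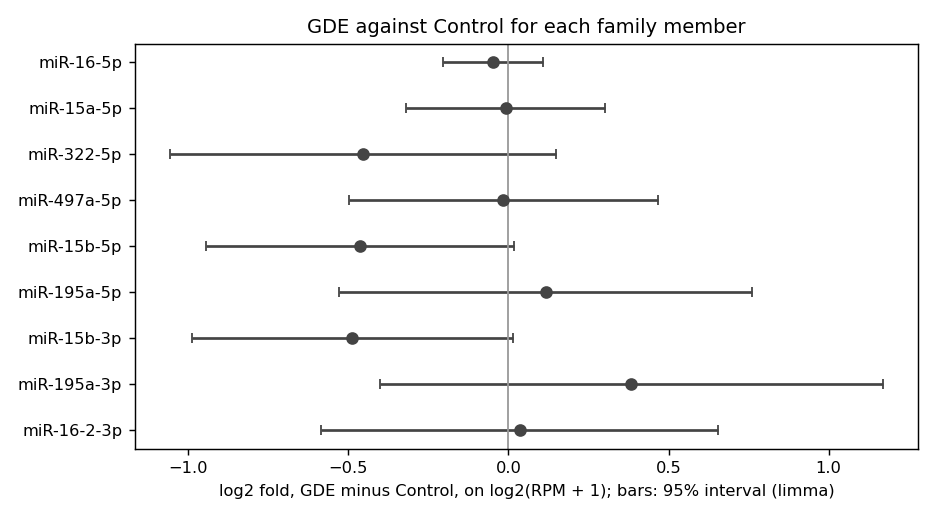
Log2 fold of GDE minus Control for each member with its 95% interval from limma, on log2(RPM + 1). All 9 intervals include 0, and those of both Mir15b arms end at 0.02 and 0.01.

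Of the 9 log2 folds, 6 were negative, beside 61.2% of all tested miRNAs, and the median was -0.02, beside -0.07 over all 649. The signs of the small folds depended on the scaling. After rescaling to the table total, or with TMM factors (a trimmed mean of ratios between libraries), 3 of the 9 were negative, namely miR-15b-5p, miR-15b-3p and miR-322-5p, while miR-15a-5p, miR-16-5p and miR-497a-5p turned positive. TMM moved the median of all tested miRNAs to 0.02. The TMM folds of miR-15b-5p, miR-15b-3p and miR-322-5p were -0.36, -0.39 and -0.35.

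Among the libraries, Control replicate 1 held the highest value of 7 members, where it held the highest value of 41.4% of all tested miRNAs. GDE replicate 1 held the lowest value of 4 members, against 13.6% of all tested. Control replicate 1 also had the highest summed RPM of the table, at 277888. What sets this library apart was not tested. Without it the differences of both Mir15b arms and of miR-322-5p were smaller, as given above.

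**Figure D3:**
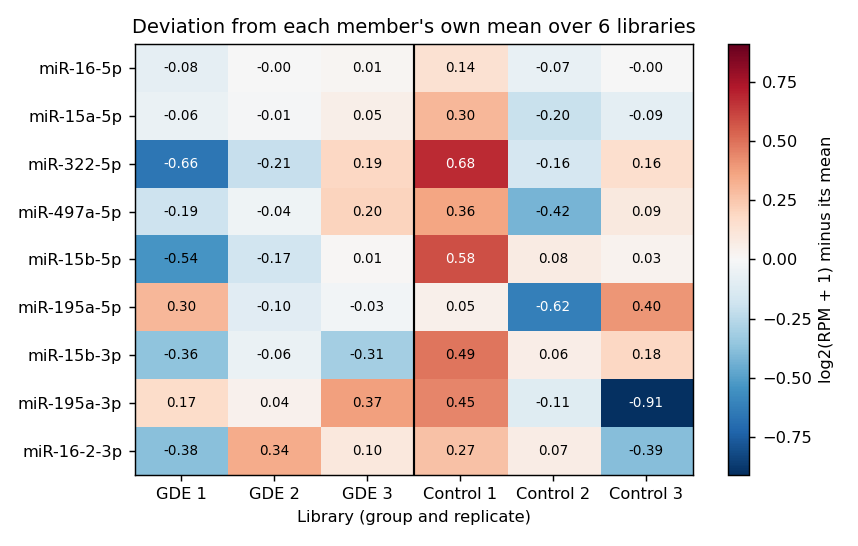
Deviation of each member from its own mean over the 6 libraries, in log2(RPM + 1), with columns for libraries and a line between GDE and Control. Control replicate 1 is positive in every row, from 0.05 for miR-195a-5p to 0.68 for miR-322-5p.

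Likeness of members was measured as the mean absolute difference between a pair of members after each was centred on its own mean in log2(RPM + 1), over the 6 libraries. Its median was 0.25 over the 9 pairs within a cluster and 0.27 over the 27 pairs across clusters. miR-16-5p was counted with the Smc4 intron here, though its tags cannot be traced to a locus. The most alike pair was miR-15a-5p with miR-16-5p at 0.08, from hairpins at different loci unless the latter came from Mir16-1. Next came miR-15a-5p with miR-497a-5p at 0.13 and miR-15b-5p with miR-322-5p at 0.13, then the arms of Mir15b at 0.15. The arms of Mir195a were next to last of the 36 pairs, at 0.48. These values are descriptions, and members with a small spread come out alike for that reason alone.

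Outside the family, the tested miRNAs most like miR-16-5p by this measure were miR-27a-3p at 0.02, let-7g-5p at 0.04 and let-7i-5p at 0.04, where the median over the 640 others was 0.22. Their mean levels were 2605, 6647 and 7556 RPM. For miR-497a-5p, the most abundant member of the other cluster, the nearest were a predicted miRNA without a miRBase name at 0.08, miR-700-3p at 0.08 and miR-344f-3p at 0.09, with a median of 0.30 over the 640.

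The relation between guides can be read within a library, where scaling cancels. The ratio of miR-15b-5p to miR-15a-5p was 0.176, 0.218 and 0.237 in GDE and 0.297, 0.296 and 0.266 in Control. Every GDE library was below every Control library, and here Control replicate 1 did not stand apart from Control replicate 2. miR-15b-5p over miR-16-5p gave 0.0606, 0.0738 and 0.0830 in GDE and 0.113, 0.0917 and 0.0850 in Control, also without overlap. For miR-15a-5p over miR-16-5p the GDE ratios of 0.339 to 0.350 lay inside the Control range of 0.309 to 0.382. The ratios without overlap given here share miR-15b-5p as numerator, and no share of such ratios over the table was taken. These ratios were looked at after the levels of miR-15b-5p were known and were given no test. Those over miR-16-5p carry the limit given above for its level. Within the other cluster, miR-497a-5p exceeded miR-195a-5p by 3.41 to 5.94 times, with overlapping groups.

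The loci differed in which arm they showed. Of the 3p tags of miR-16, 360 matched Mir16-2 and 7 matched Mir16-1 over the 6 libraries, a share of 98.1% for Mir16-2 (exact binomial 95% interval 96.1% to 99.2%, counting error only). miR-16-1-3p had 0 to 3 tags per library, and the 0 tags of GDE replicate 2 and Control replicate 2 allow up to 3 (the one-sided 95% limit), or 0.254 and 0.242 RPM. The 3p tags of miR-15 leaned to the Smc4 intron too, with 4944 from Mir15b and 189 from Mir15a, or 96.3% (95.8% to 96.8%). Guide tags leaned the other way: miR-15b-5p held 20.0% (19.8% to 20.1%) of the miR-15 guide tags and miR-15a-5p the rest. In single libraries this guide share was 14.9%, 17.9% and 19.2% in GDE and 22.9%, 22.9% and 21.0% in Control. This share restates the ratio of miR-15b-5p to miR-15a-5p given above.

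Arm ratios were then compared across the table, over 191 pairs of a 5p and a 3p row matched by name. No pair passed in limma at an adjusted p under 0.05 (0% of pairs), and 7.33% had an unadjusted p under 0.05. miR-16-5p exceeded miR-16-2-3p by 1147 to 2120.3 times, the third highest ratio of the 191 on the log2(RPM + 1) scale, although its guide tags may stem from both loci. miR-15a-5p exceeded miR-15a-3p by 757 to 1232 times, ranking 6th. By contrast, the ratio was 8.14 to 11.5 for Mir15b, at rank 70, and 13.2 to 50.2 for Mir195a, at rank 54.

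Since both arms of Mir15b differed between the groups by about the same amount, their ratio was close in both groups: the difference of GDE minus Control in the log2 ratio was 0.02 (SE 0.23, 95% interval -0.51 to 0.56; limma, adjusted p = 0.999). For miR-16-5p over miR-16-2-3p it was -0.08 (SE 0.22, 95% interval -0.60 to 0.44; limma, adjusted p = 0.971). For Mir195a it was -0.27 (SE 0.48, 95% interval -1.39 to 0.86; limma, adjusted p = 0.953), with Control replicate 3 at a ratio of 50.2 where the other 5 libraries lay between 13.2 and 20.4. Mir322 had the widest gap, at 18.6, 33.8 and 24.7 in GDE and 28.6, 114.8 and 40.2 in Control, with overlap between GDE replicate 2 and Control replicate 1. Its difference was -1.004 (SE 0.49, 95% interval -2.15 to 0.14; limma, adjusted p = 0.631).

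**Figure D4:**
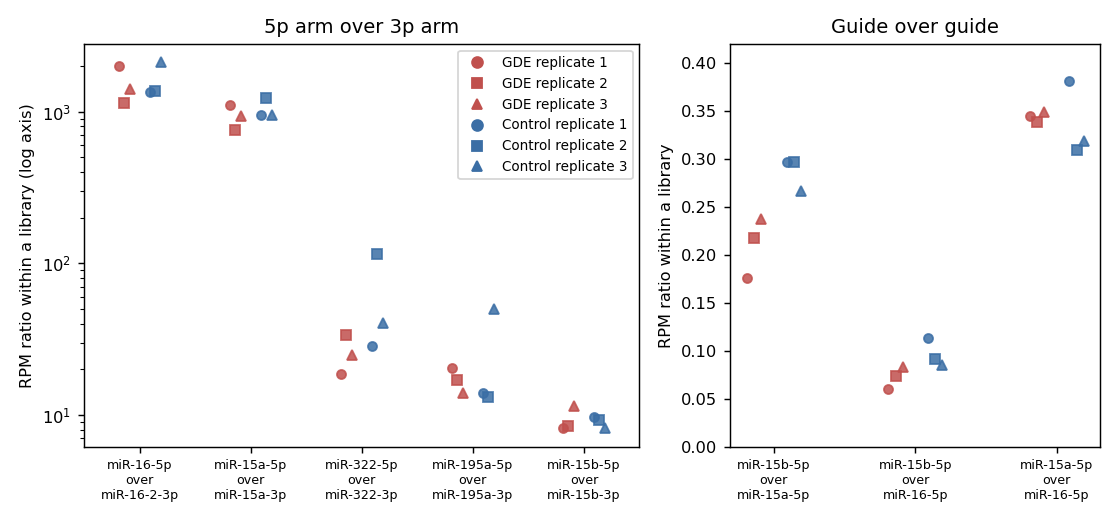
Ratios of RPM within each library, with the 5p arm over the 3p arm on a log axis at left and guide over guide on a linear axis from 0 at right; points are libraries. The arm ratio of Mir15b is close in both groups, while miR-15b-5p over miR-15a-5p lies at 0.176 to 0.237 in GDE and 0.266 to 0.297 in Control.

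Other products of these hairpins and of the Mir322 cluster on chromosome X were followed as a list of 17 names, 16 of them in the table and 13 tested. None passed in either direction, beside 0.308% of all tested. The folds were negative for 4 and positive for 9, with a median of 0.03 (-0.07 over all tested), and the same counts of signs were found under TMM. miR-503-5p, which is cut from the same transcript as miR-322 and differs from the family in the last seed base, was at 9.60, 14.1 and 21.0 RPM in GDE and 31.1, 12.6 and 12.1 RPM in Control. GDE replicate 3 was the second highest of these, so the groups overlapped.

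miR-322-3p, the passenger of miR-322, was at 58.4, 43.8 and 79.0 RPM in GDE and 96.0, 13.4 and 47.5 RPM in Control. Control replicate 2 was low and Control replicate 1 high, so Control spanned all GDE libraries. Its neighbours miR-542-5p, at 347 ± 66.2 against 340.1 ± 64.6 RPM, miR-351-5p, at 189 ± 60.4 against 168 ± 16.6 RPM, and miR-450a-5p, at 98.3 ± 25.1 against 82.0 ± 20.0 RPM, had folds of the opposite sign to that of miR-322-5p (means in GDE and Control, SD, n = 3 each). Their log2 folds of 0.03, 0.13 and 0.25 were within the spread of the libraries.

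Negative folds, the sign of miR-322-5p, were found for miR-503-5p (-0.23, SE 0.41), miR-450b-3p (-0.14, SE 0.24), miR-450b-5p (-0.15, SE 0.50) and miR-351-3p. miR-450b-3p was at 57.8 against 64.6 RPM, and miR-450b-5p at 11.01 against 10.9 RPM, where the means and the log2 fold differ in sign, with GDE replicate 3 highest at 19.96 RPM (means in GDE and Control). miR-542-3p was at 16.9 against 16.3 RPM, and miR-503-3p at 4.32 against 3.48 RPM. miR-351-3p, at 2.18 ± 1.05 against 5.71 ± 3.63 RPM (SD, n = 3 each), had a log2 fold of -1.004 (SE 0.41, 95% interval -1.95 to -0.05; limma, unadjusted p = 0.0409, adjusted p = 0.561), with overlapping groups. It was the only one of these 13 with an unadjusted p under 0.05, beside 8.63% of all tested. miR-450a-1-3p was at 3.39 against 3.30 RPM, miR-15a-3p at 2.76 against 2.495 RPM, and miR-450a-2-3p at 1.42 against 1.47 RPM. miR-497a-3p and miR-497b, the latter read from the strand opposite Mir497, stayed below 1.36 RPM in every library.

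Relatives that carry the hexamer of the seed shifted by a base, or with a different last base, were miR-103-3p, miR-107-3p and miR-503-5p. Capitals mark bases 2 to 8 in each.
miR-103-3p: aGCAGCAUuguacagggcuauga
miR-107-3p: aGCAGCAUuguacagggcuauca
miR-503-5p: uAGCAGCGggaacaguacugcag

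None of the 3 passed in either direction. All 3 log2 folds were negative, with a median of -0.32 (-0.07 over all tested). Under TMM all 3 were negative too, with a median of -0.22 (0.02 over all tested). miR-103-3p, linked to metabolic control through the insulin pathway, was at 593, 686 and 555 RPM in GDE and 897, 736 and 671 RPM in Control. GDE replicate 2 lay above Control replicate 3, and the log2 fold was -0.32 (SE 0.16, 95% interval -0.69 to 0.05). miR-107-3p, which differs from miR-103-3p by G22C alone, was at 4.55 ± 1.92 against 5.85 ± 1.13 RPM (SD, n = 3 each), and the split of tags between such near-identical miRNAs is uncertain.

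Other miRNAs known to restrain the cell cycle formed a list of 8, all tested, of which none passed in either direction. Negative folds were found for 4 of the 8, with a median of 0.00, and for 2 of the 8 under TMM. Of its 4 most abundant members, 3 had log2 folds between -0.02 and 0.01: let-7b-5p at 8281 ± 105 against 8407 ± 227 RPM, miR-34a-5p at 7801 ± 383 against 7814 ± 152 RPM, and miR-26a-5p at 7760.3 ± 275 against 7688 ± 188 RPM (GDE and Control, SD, n = 3 each). All 3 are above 5000 RPM, where compression of differences was not tested. miR-125b-5p, at 1829 ± 715 against 2137 ± 424 RPM (SD, n = 3 each), had a log2 fold of -0.28 (SE 0.26), with overlapping groups.

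The labelled cell type was checked because miR-16 and miR-195 are also abundant in blood, vessels and muscle. miR-9-5p, of neural progenitors, was at 8154 to 8831 RPM in all libraries and miR-9-3p at 7069 to 8428 RPM, while miR-92b-3p, also of progenitors, ranged from 1302 to 3289 RPM. Of the neuronal miRNAs, miR-124-3p was at 182 to 283 RPM (log2 fold 0.08) and miR-128-3p at 531 to 789 RPM (log2 fold -0.14). Summed levels of 4 erythroid miRNAs were higher in every GDE library (73.9 to 93.6 RPM) than in any Control library (34.98 to 69.1 RPM), mainly through miR-451a, while miR-144-5p was at 0 in 3 libraries. Erythroid miR-486a-5p had a log2 fold of 0.05 with overlapping groups. The 6 leukocyte and microglia miRNAs summed to 2166 to 2660.0 RPM in GDE and 1482 to 2203 RPM in Control, with 5 of 6 folds positive, a median log2 fold of 1.25 (-0.07 over all tested) and miR-142a-5p at 0 in Control replicate 1. Most of that sum is miR-146a-5p, whose log2 fold was 0.23. The negative fold was that of miR-155-5p, at -0.25, with means of 90.6 RPM in GDE and 108 RPM in Control. The other folds were larger. miR-150-5p, of lymphocytes, was at 233, 358 and 304 RPM in GDE and 90.3, 187 and 103 RPM in Control, and miR-223-3p, of myeloid cells, at 66.7, 96.0 and 72.3 RPM in GDE and 16.1, 54.3 and 19.4 RPM in Control. Both were higher in every GDE library than in any Control library, with log2 folds of 1.28 (SE 0.31; limma, unadjusted p = 0.0032, adjusted p = 0.510) and 1.55 (SE 0.43; limma, unadjusted p = 0.0076, adjusted p = 0.551). miR-142a-3p, of blood cells in general, had no overlap either. Its log2 fold was 1.72 (SE 0.70, unadjusted p = 0.0389 and adjusted p = 0.561 in limma). Control replicate 1 was the lowest library for all 3, and for miR-142a-3p it held 3 tags (0.249 RPM). Control replicate 2, at 10.0 RPM, lay just under GDE replicate 1, at 10.4 RPM. For miR-142a-5p, the other arm of that hairpin, the groups overlapped, with a log2 fold of 1.23 (unadjusted p = 0.0692 in limma). Over all tested miRNAs, 4.62% were higher in GDE without overlap, and 8.63% had an unadjusted p under 0.05 in either direction. Sums overlapped for the 2 oligodendrocyte miRNAs (208 to 263 against 158 to 233 RPM), the 2 endothelial miRNAs (265 to 465 against 232 to 345 RPM), the 5 mural and mesenchymal ones (108 to 149 against 96.5 to 129 RPM), the 3 striated muscle ones (16.3 to 36.3 against 23.9 to 52.6 RPM) and the 2 choroid plexus ones (533 to 1137 against 252 to 669 RPM). Of the tested miRNAs summed here, miR-206-3p of muscle (log2 fold -0.58) and miR-199a-3p (-0.15) had negative folds and the rest positive. Mural miR-145a-5p (0.63, unadjusted p = 0.0121 in limma) and endothelial miR-126a-5p (0.39) were higher in every GDE library than in any Control library. Choroid plexus miR-204-5p had a log2 fold of 1.10 with overlapping groups. None of the miRNAs in these lists passed in limma or edgeR, and miR-150-5p passed in DESeq2 (adjusted p = 0.0366). The part of these cells in the levels of the family was not tested.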

How the data were processed

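Cells were lysed in TRIzol and the small RNA libraries built with an MGIEasy kit, per the labels' protocols. Bowtie2 and the build mm10 appear in the submitters' processing notes with neither version nor role. How reads were trimmed, assigned when they matched several miRNAs, or collapsed is not stated in those notes or the labels used here. The unit of the deposited table, RPM made by the authors, was inferred from its numbers: steps of 0.0807 to 0.0851 RPM per tag gave whole tags for 100% of nonzero values within 0.1 tags. PCR reads are not independent molecules, so intervals cover counting error only.

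limma 3.58.1 (R 4.3.3) with a trend was fitted two-sided on log2(RPM + 1) over all miRNAs of at least 1 RPM in 3 libraries, with no further scaling. Folds are on that scale and are too small for miRNAs of low level. Arm ratios were fitted likewise over pairs matched by name. edgeR 4.0.16 on the recovered tags called 2 miRNAs, as did limma. DESeq2 1.42.0, limma-voom, other scalings, pseudocounts (0.1 and 10), filters, single libraries left out in turn and a replicate block were alternatives. Permutation tests used scipy 1.17.1. Fits were also run on simulated data. The folds simulated there were larger than those of the members, so folds of the members' size were not covered, and the outcome is not given here.

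Group and replicate came from the library titles. Replicates differed by far more than sampling noise (chi-square per degree of freedom 47.1 to 173.1). Sequences came from RefSeq, which matched 960 of 1147 named rows. Members and lists were chosen with earlier results of these data known. All members were named, and so were those of at least 1 RPM on average from the precursor, cluster and related-seed lists and the 4 most abundant of the cell cycle list. For the most abundant member of each cluster, the 3 tested miRNAs outside the family with the nearest pattern were named. miR-497a-3p, miR-497b, miR-16-1-3p and the marker miRNAs fall outside this rule and were named after their values were seen.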

Additional observations from a re-analysis of the deposited data

How the results depend on the processing

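None of the 9 members passed the threshold under any of the 16 alternatives, and the adjusted p of members ran from 0.359 (miR-15b-3p, DESeq2) to 1. The log2 folds of miR-15b-5p (-0.59 to -0.29), miR-15b-3p (-0.58 to -0.37), miR-322-5p (-0.66 to -0.23) and miR-195a-3p (0.02 to 0.70) kept their sign in all 16. The number of miRNAs called over the table was 2, and it was 7 with DESeq2 (of 560 with an adjusted p), 1 with limma-voom, 1 with at least 10 RPM in 3 libraries, and 1 to 2 when a library was left out; it was 1 without GDE replicate 2, GDE replicate 3, Control replicate 1 or Control replicate 3. For arm ratios the number was 0, and 1 with no filter.

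Some signs turned. The folds of miR-15a-5p, miR-16-5p and miR-497a-5p became 0.051, 0.012 and 0.043 after rescaling to the table total, 0.094, 0.055 and 0.086 with TMM, 0.093, 0.057 and 0.082 with edgeR, 0.087, 0.051 and 0.077 with DESeq2, and 0.090, 0.055 and 0.082 with limma-voom. With a library left out, the folds ran from -0.11 to 0.14 for miR-15a-5p, from -0.093 to 0.0090 for miR-16-5p, from -0.23 to 0.16 for miR-497a-5p, from -0.17 to 0.34 for miR-195a-5p and from -0.15 to 0.23 for miR-16-2-3p. The arm ratio difference of Mir15b was -0.026 with a pseudocount of 10 and -0.13 to 0.12 with a library left out. That of miR-16 ran from -0.25 to 0.091 and that of Mir195a from -0.59 to 0.32; the cause was not tested. miR-16-2-3p was below the filter of 10 RPM and has no value there.

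The replicate block, with the numbers in the titles, left 2 miRNAs, 0 members and 0 arm ratios called and changed no call of a member or arm ratio. Same-numbered libraries did not deviate together (r = -0.03, -0.12 and -0.03), so the numbers were not taken as pairs. The depth limits the 3p arms with few tags.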
